A study of Mus musculus with 6 samples.

Results

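The genes described here encode the proteins of the cytosolic ribosome and the factors that start and extend protein synthesis on it. They were chosen by symbol from the deposited count table: names of the Rpl, Rps, Rplp or Rpsa kind, and every name that begins with Eif or Eef and a digit, leaving out symbols marked as pseudogenes. The rule found 42 of 13685 rows, 24 with a ribosomal protein symbol and 18 with a translation factor symbol. The set is incomplete. GENCODE M21, a mouse annotation on build GRCm38, holds 148 protein-coding genes that meet the rule, and 40 of them had a row, among them 22 of 80 ribosomal protein genes. The other 2 members, Rpl32l and Rpl6l, are processed pseudogenes in that annotation. The eIF2 subunits and Rps27l had no row and were not analysed here.

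Both groups were wild-type CD4+ T cells of C57BL/6 mice, taken from spleen and mesenteric lymph node and negative for CD25, so that regulatory T cells were depleted. Cells were cultured for 4 h at 1000000 cells per well, either with tunicamycin at 0.15 µg/mL or without it. The titles describe the control cells as untreated and the treatment protocol says that controls were given vehicle, the name used for them here. Each group had 3 libraries, labelled as technical replicates. Every p-value here therefore reflects variation among these libraries and cannot be taken as variation among animals. The labels do not state the age or sex of the mice, or how many gave cells.

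Tunicamycin blocks the enzyme that starts N-linked glycosylation, so that unfolded glycoproteins accumulate in the endoplasmic reticulum. Of the pathways known to respond to this stress, the one through the kinase PERK phosphorylates eIF2 and lowers the rate at which ribosomes start on most mRNAs. The mRNAs of ribosomal proteins and of several translation factors begin with a run of pyrimidines, the 5′ terminal oligopyrimidine (TOP) tract. Through it, mTORC1 signalling is known to adjust how much these mRNAs are translated. The present libraries measured the amount of mRNA and not its translation.

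The start regions of 6 members are shown as examples with and without a pyrimidine run by the rule below. A run found this way is a match of letters and need not be a TOP tract. Each window runs from 30 bases before to 20 bases after the RefSeq start on build GRCm38.p6, 5′ to 3′ on the gene's strand. Capitals mark a C followed by at least 4 further pyrimidines that stands at the start or, after a purine, within 10 bases of it. At the start the base before the C was not considered, and in Rpl35 and Eif3f pyrimidines also stand directly before it. Rpl35 lies at chr2:39005112-39005161 on the minus strand, Rps23 at chr13:90923092-90923141 on the plus strand, Rps7 at chr12:28635934-28635983 on the minus strand and Eif3f at chr7:108934385-108934434 on the plus strand. Rpl23, at chr11:97782420-97782469 on the minus strand, and Rpl24, at chr16:55966245-55966294 on the plus strand, had no such run.
Rpl35: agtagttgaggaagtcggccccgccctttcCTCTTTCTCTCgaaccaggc
Eif3f: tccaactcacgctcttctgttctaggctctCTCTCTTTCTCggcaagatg
Rps23: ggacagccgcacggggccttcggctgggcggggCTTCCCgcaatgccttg
Rps7: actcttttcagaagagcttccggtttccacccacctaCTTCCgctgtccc
Rpl23: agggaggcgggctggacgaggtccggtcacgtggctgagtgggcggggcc
Rpl24: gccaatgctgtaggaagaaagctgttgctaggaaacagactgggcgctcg

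A RefSeq promoter was found for 28 of the 42 members. On the gene's strand, such a C stood exactly at the annotated start in 4 of these 28, or 14.3%, against 2.51% of all 32851 promoters of the table. Of these, Rpl35, Eif3f and Rps27 had further pyrimidines directly before the start, so that their runs began upstream of it. The other was the processed pseudogene Rpl32l, which was too low to be tested. Among the tested members with a promoter, none had a run of this kind that began exactly at the annotated start. Within 10 bases on either side a run after a purine began in 11 of 28, or 39.3%, against 22.9% of all promoters. For ribosomal protein symbols the second count was 8 of 16 (50%), and for translation factors 3 of 12 (25%). The ribosomal protein count includes Rpl32l, a pseudogene, and Rpl10l, a gene that was not detected here. These matches describe letters at annotated starts, which can lie some bases away from the start used in these cells.

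Ribosomal protein mRNAs were abundant in every library. Estimated counts of the 24 rows made up 13.4%, 12.7% and 14.3% of all counts in the vehicle libraries and 13.1%, 12.5% and 13.4% in the tunicamycin libraries. The means were 13.5% ± 0.770 and 13.0% ± 0.472 (SD, n = 3 each), and the groups overlapped. In TPM, a relative abundance that is divided by transcript length, the shares of the deposited total were 21.1% ± 1.00 and 20.9% ± 0.869 (SD, n = 3 each). Translation factors held 0.815%, 0.785% and 0.820% of counts in vehicle and 0.789%, 0.768% and 0.789% in tunicamycin. These shares refer to the rows of the table, whose TPM values summed to between 319120 and 332870 per library.

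Compared per length, 21 of the 22 tested ribosomal protein rows had a mean TPM between 946 for Rps20 and 10460 for Rplp1. Rplp1, a protein of the stalk that recruits elongation factors to the large subunit, had TPM values of 11129, 10637 and 11441 in vehicle and 10229, 9522 and 9805 in tunicamycin. Rps29, a small-subunit protein, followed with 9599, 8770 and 10374 in vehicle and 9372, 8980 and 9508 in tunicamycin, so that its range overlapped that of Rplp1. Among the translation factors with a row the highest was Eif3e, at a mean TPM of 490, and Eif3f followed at 345. The plot of levels shows the step from the ribosomal proteins to these factors. Factors without a row are not part of it.

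**Figure D1:**
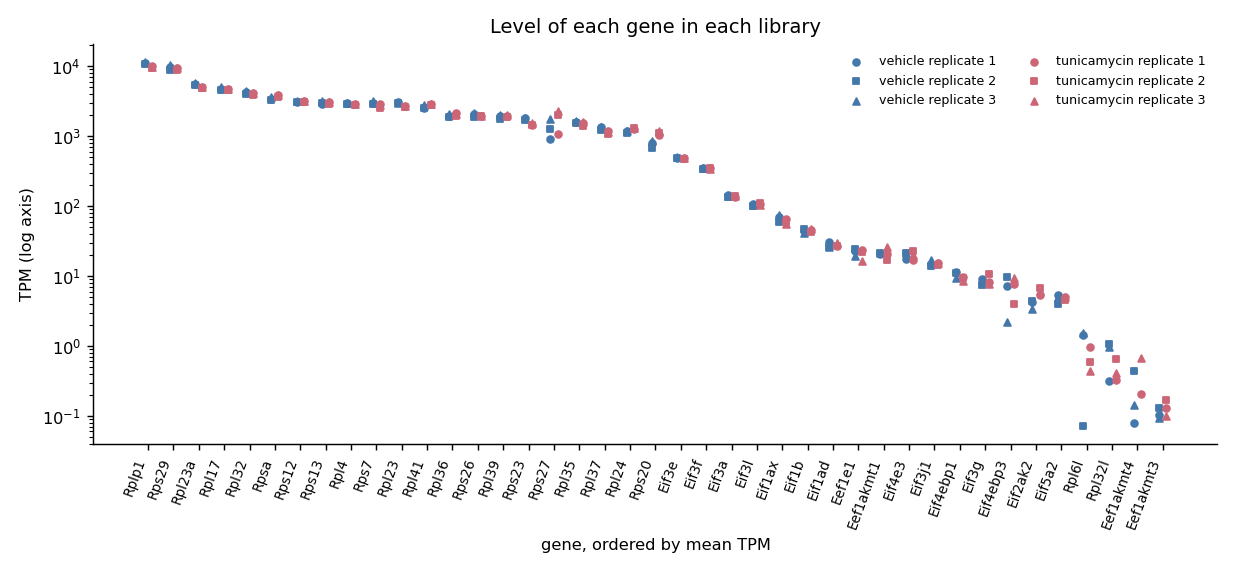
Level of each gene in each library, as TPM on a log axis, with genes ordered by mean TPM. Blue points are the 3 vehicle libraries and red points the 3 tunicamycin libraries; values of 0 are not drawn, which leaves out Rpl10l and 1 tunicamycin library of Eef1akmt4. Ribosomal proteins from Rplp1 (mean 10460) to Rps20 (946) lie above Eif3e (490), the most abundant of the translation factors with a row.

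No member passed the main test between tunicamycin and vehicle, which has treatment as its only term. A fit with the replicate number as an added term gave other calls and is described with the alternatives at the end. Of the 42, 39 had enough counts to be tested, 22 ribosomal protein symbols and 17 translation factors; Rpl32l and Eef1akmt4 were too low, and Rpl10l was at 0 in all 6 libraries. With edgeR's quasi-likelihood test and Benjamini-Hochberg adjustment over all 3613 genes, 0 members were called higher and 0 lower, against 0.0554% of all genes called higher and 0.0277% called lower. At an unadjusted p under 0.05, 0 members were higher and 9 were lower, against 3.24% and 3.18% of all genes. With DESeq2, 3 members, Rpl35, Rps23 and Rpl23, were called lower and 0 higher, where 0.305% and 0.332% of all genes were called. With limma on log2(TPM + 1), 0 members were called. In a bulk sample, fewer cells of a type and less of an mRNA per cell cannot be told apart.

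The sizes were small. For 35 of the 39 tested members the whole 95% interval of the fold change lay within 1.5-fold in either direction. The exceptions were Rps27, Rpl6l, Eif4ebp3 and Eef1akmt3, whose libraries scattered or whose counts were low. The median log2 fold change was -0.08 over the 22 ribosomal proteins and -0.03 over the 17 factors, beside 0.00 over all tested genes. On the log2(TPM + 1) scale the medians were -0.05 and 0.00, beside 0.05 over all tested genes. Of the ribosomal proteins, 5 lay above 0 and 17 below, and of the factors 5 above and 12 below.

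**Figure D2:**
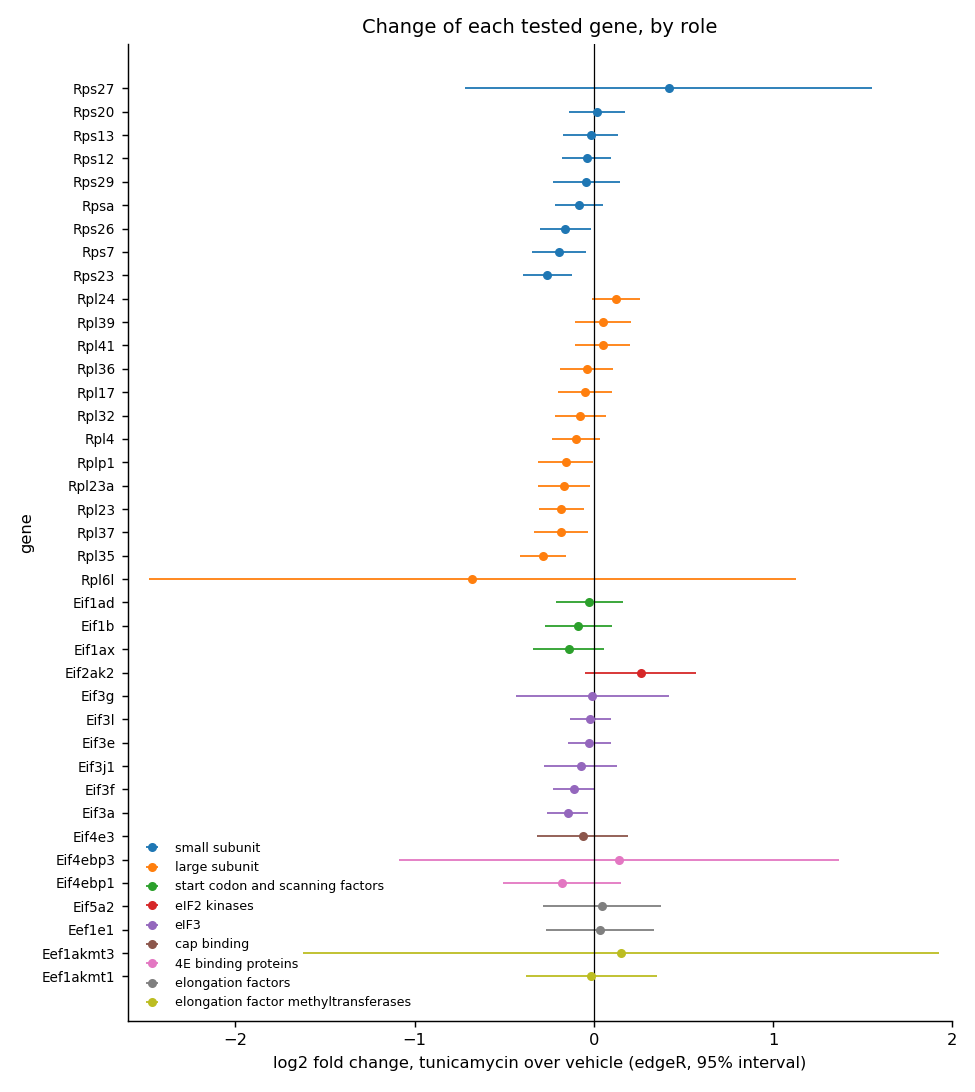
Log2 fold change of tunicamycin over vehicle with its 95% interval (edgeR, 3 libraries per group) for each of the 39 tested genes, coloured by role. All intervals of abundant ribosomal proteins other than Rps27 lie within 1.5-fold of no change, and 17 of 22 ribosomal protein estimates lie below 0.

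In CPM, counts relative to the library total scaled with TMM factors, all tunicamycin libraries lay below all vehicle libraries for 11 members and above them for 1, against 5.95% and 6.62% of all genes. These were 9 ribosomal proteins and 2 eIF3 subunits below, and the ribosomal protein Rpl24 above. Single libraries moved many of these genes together. Vehicle replicate 3 was the highest vehicle library for 22 of 22 tested ribosomal proteins. Tunicamycin replicate 2 was the lowest tunicamycin library for 20 of 22, the exceptions being Rpl6l and Rps27. The 22 genes are therefore not 22 separate measurements of the treatment.

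**Figure D3:**
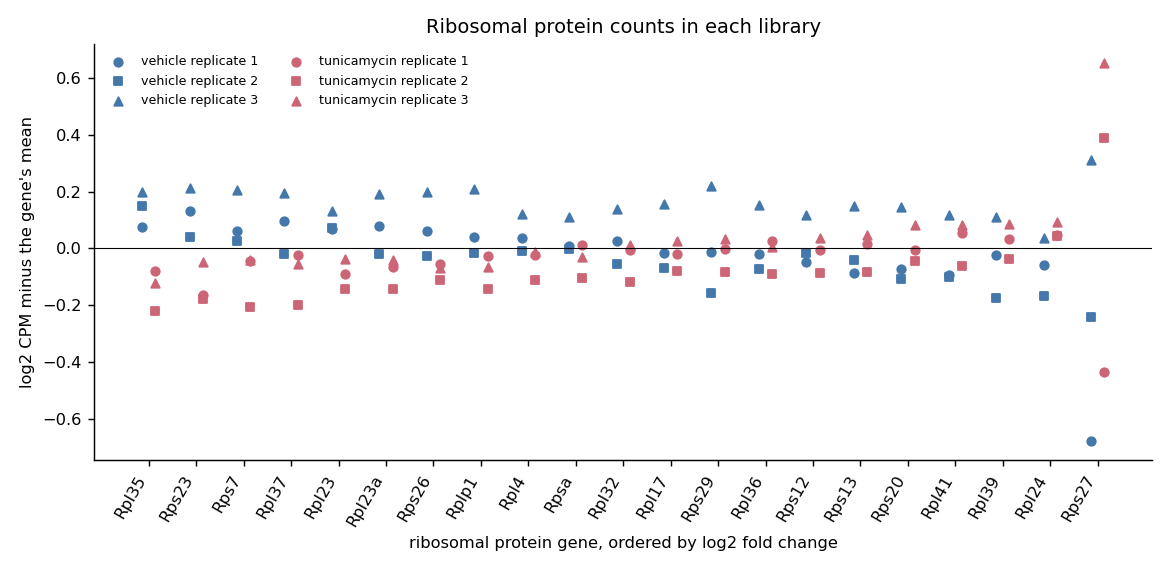
Log2 CPM of each of the 21 ribosomal protein genes with a mean TPM of at least 100, minus the gene's own mean over the 6 libraries, ordered by log2 fold change. Blue is vehicle, red is tunicamycin and the symbol gives the replicate; the blue triangles (vehicle replicate 3) are the highest vehicle points for every gene, and Rpl35 (-0.28) and Rps23 (-0.26) stand at the left, with the lowest log2 fold changes among these genes.

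Abundant genes outside the rule were also examined. Of the 24 tested genes at or above the median level of the tested ribosomal proteins, among them 10 mitochondrially encoded genes, B2m, Fth1 and the ribosomal genes Rps3a1 and Rps27rt, 21 lay below 0. Their median log2 fold change was -0.09 and 5 had an unadjusted p under 0.05 in the lower direction. The share that level itself has in the shift of the ribosomal proteins was not tested.

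Rps23, a small-subunit protein of the decoding centre (ENSMUSG00000049517; chr13:90922958-90924950 on GRCm38), was at 3820, 3583 and 4040 CPM in vehicle and 3110, 3076 and 3373 CPM in tunicamycin. Every tunicamycin library lay below every vehicle library. The means were 3814 ± 228 and 3186 ± 162 CPM (SD, n = 3 each), which gave a log2 fold change of -0.26 (SE 0.06, 95% interval -0.40 to -0.12). The adjusted p was 0.32 in edgeR and 0.0034 in DESeq2, and over the alternatives without a replicate block it ranged from 0.0034 to 1.00. TPM was 1816, 1678 and 1793 in vehicle and 1440, 1447 and 1552 in tunicamycin, again without overlap.

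Rps7, another small-subunit protein, was at 8221, 8017 and 9077 CPM in vehicle and 7632, 6835 and 7650 CPM in tunicamycin. The groups did not overlap, at a log2 fold change of -0.19 (SE 0.07, adjusted p = 0.59 in edgeR). Rps26, which sits near the exit of the mRNA channel, was at 4329, 4076 and 4772 CPM in vehicle and 4003, 3847 and 3955 CPM in tunicamycin. Its groups did not overlap in CPM (log2 fold change -0.16, adjusted p = 0.68) but did in TPM. Those 3 genes, of 9 tested small-subunit members, were the ones with an unadjusted p under 0.05.

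Rpsa, the protein also known as the laminin receptor, had the most counts of the members. Its CPM was 15479, 15364 and 16611 in vehicle and 15499, 14310 and 15060 in tunicamycin, with overlapping groups and a log2 fold change of -0.08. Rps12 was at 4762, 4868 and 5340 CPM in vehicle and 4895, 4633 and 5044 CPM in tunicamycin (log2 fold change -0.04, 95% interval -0.18 to 0.10). Rps29 gave -0.04 and, chosen after its values were seen, Rps13 gave -0.02. Rps27, a zinc-binding protein of the small subunit, varied most between libraries of the same group among the small-subunit members, with 729, 986 and 1448 CPM in vehicle and 861, 1528 and 1833 CPM in tunicamycin. Its log2 fold change of 0.42 had a 95% interval from -0.72 to 1.55.

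Rpl35, a protein near the exit of the peptide tunnel (ENSMUSG00000062997; chr2:39001580-39005624 on GRCm38), had the smallest p of the large-subunit members. Its exons overlap annotated exons of Arpc5l and Wdr38, with which reads may be shared. It was at 3357, 3533 and 3649 CPM in vehicle and 3009, 2731 and 2923 CPM in tunicamycin. Every tunicamycin library was below every vehicle library, with means of 3513 ± 147 and 2888 ± 142 CPM (SD, n = 3 each). The log2 fold change was -0.28 (SE 0.06, 95% interval -0.41 to -0.15), with an adjusted p of 0.23 in edgeR and 8.6e-05 in DESeq2. Over the alternatives without a replicate block the adjusted p ranged from 8.6e-05 to 1.00. In TPM the groups overlapped, at 1581, 1532 and 1652 in vehicle and 1548, 1419 and 1572 in tunicamycin, and with effective-length offsets in the count test the log2 fold change was -0.13.

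Rpl23, a protein of the subunit interface (ENSMUSG00000071415; chr11:97777527-97782437), was at 7856, 7860 and 8200 CPM in vehicle and 7029, 6774 and 7295 CPM in tunicamycin. All tunicamycin libraries were below all vehicle libraries, with means of 7972 ± 198 and 7033 ± 260 CPM (SD, n = 3 each). The log2 fold change was -0.18 (SE 0.06), with an adjusted p of 0.48 in edgeR and 0.020 in DESeq2, and a range of 0.020 to 1.00 over the alternatives without a replicate block. The TPM values of 3050, 3003 and 3008 in vehicle and 2660, 2609 and 2738 in tunicamycin did not overlap either.

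Of the 13 tested large-subunit members, 5 had an unadjusted p under 0.05, all in the lower direction: Rpl35, Rpl23, Rpl23a, Rpl37 and Rplp1. Rpl23a, a docking site at the tunnel exit for the signal recognition particle, was at 9690, 9049 and 10495 CPM in vehicle and 8766, 8325 and 8918 CPM in tunicamycin (log2 fold change -0.17, adjusted p = 0.65 in edgeR). Rpl37 was at 2563, 2366 and 2745 CPM in vehicle and 2361, 2090 and 2306 CPM in tunicamycin (-0.18, adjusted p = 0.64). Rplp1, the stalk protein, was at 13685, 13140 and 15352 CPM in vehicle and 13056, 12031 and 12717 CPM in tunicamycin (-0.16, adjusted p = 0.71). None of the 3 overlapped between the groups in CPM or TPM.

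Rpl24, named after its values were seen, was the member whose tunicamycin libraries all lay above the vehicle libraries (ENSMUSG00000098274; chr16:55966275-55971435). Its CPM was 2578, 2387 and 2753 in vehicle and 2772, 2767 and 2858 in tunicamycin, and its TPM was 1179, 1093 and 1182 against 1275, 1310 and 1306. The log2 fold change was 0.12 (SE 0.06, 95% interval -0.01 to 0.26, adjusted p = 0.82 in edgeR). Its exons overlap those of Gm28037, so reads may be shared between these annotations. The remaining tested large-subunit members ranged from -0.10 for Rpl4 to 0.05 for Rpl39, both named after their values were seen, apart from the pseudogene Rpl6l at -0.68 with under 5 CPM in each library.

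Of the 8 ribosomal proteins with an unadjusted p under 0.05, 6 had a RefSeq promoter. By the rule used, the pyrimidine run stood near the start in Rpl35, Rps23 and Rps7 and was not found in Rpl23, Rpl37 and Rps26. The windows printed above show both kinds. Rps26 does have pyrimidines in a row just after its start, but they begin with a T and were therefore not counted. Of the ribosomal proteins with an estimate above 0 and a promoter, Rpl39 and Rps27 had a run and Rpl24 and Rpl41 did not. Of the other tested ribosomal proteins with a promoter, Rps12 had a run, and Rpl4, Rps13 and Rpsa did not. Rpsa also has pyrimidines in a row just after its start that begin with a T. In Rpl4, Rpl37 and Rps13, rows of pyrimidines begin more than 10 bases from the start. A gene without a run by this rule can therefore still have pyrimidines nearby.

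Ribosomal protein genes have many processed copies, and 26 members, 22 of them ribosomal, shared at least 10% of their 31-base words with another gene of the annotation. Counts of each member were therefore also summed with those of the non-member rows that shared this much, an alternative chosen after seeing the data. Gm7434 and Rpl32-ps, which share this much with both Rpl32 and Rpl32l, were added to Rpl32. Library totals and TMM factors were computed anew for these sums, so their CPM differ slightly from the added CPM of the rows. The share of words is taken over all annotated transcripts of a member, so long transcripts can lower it. Rps20, with transcripts of up to 3706 bases, shared 6.98% with Gm4332 and was not summed. For Rpl35 the rows Gm2000, Gm10269 and Gm4342 held 875, 760 and 1018 CPM in vehicle and 1050, 1003 and 1230 CPM in tunicamycin. The sum gave a log2 fold change of -0.14 (95% interval -0.28 to -0.01, adjusted p = 0.71), and its groups still did not overlap.

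For Rps23 the 8 related rows held 4069, 3921 and 4462 CPM in vehicle and 4359, 4095 and 4661 CPM in tunicamycin. The sum was at 7906, 7525 and 8445 CPM in vehicle and 7487, 7165 and 8034 CPM in tunicamycin, with overlapping groups and a log2 fold change of -0.07. Rpl23 with Gm9794 gave -0.12, also with overlap. Rps7, Rpl23a and Rps26 kept -0.19, -0.17 and -0.16, and their groups did not overlap after summing. Their related rows held at most 12.4, 66.3 and 0.400 CPM in any library, too little for the sums to differ much from the genes alone. Genes that share sequence with Rplp1 and Rpl37, such as Gm10073 and Rpl37rt, had no row and were not analysed here. The same holds for Gm6472, which shares 26.5% of the words of Rps7, and for Rps26-ps1, which shares 19.6% of those of Rps26.

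Rps27 and its near copy Rps27rt, which shares 27.4% of the 31-base words of Rps27, added up to a much steadier value. Rps27rt was at 12260, 10694 and 12194 CPM in vehicle and 11576, 9951 and 10141 CPM in tunicamycin. Their sum was 13018, 11712 and 13551 CPM in vehicle and 12467, 11469 and 11975 CPM in tunicamycin, a log2 fold change of -0.09 in place of 0.42. Over the 23 ribosomal protein rows tested after summing, 17 of them sums, 6 had an unadjusted p under 0.05 in the lower direction against 3.15% of all genes. The median log2 fold change was -0.07.

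**Figure D4:**
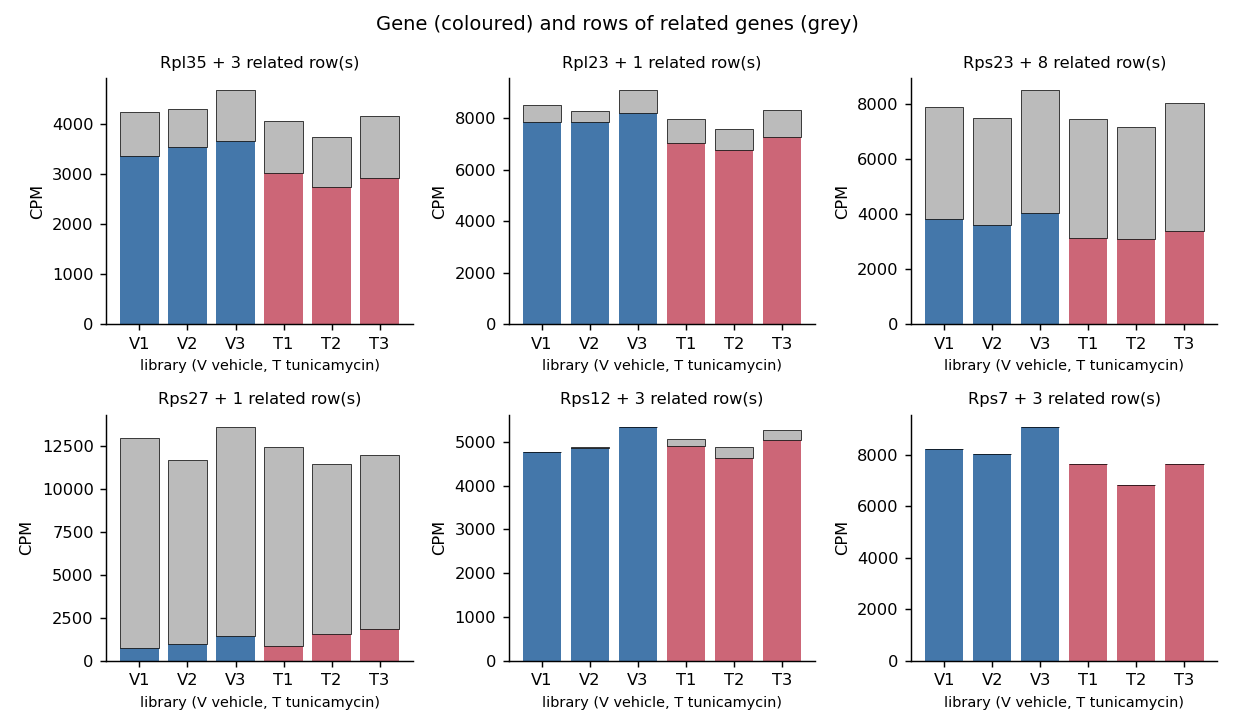
CPM of 6 ribosomal protein genes (coloured bars, blue for vehicle and red for tunicamycin) with the rows that share at least 10% of their 31-base words stacked in grey, for each library. All bars are scaled as in the main test. For Rps23 and Rps27 the grey part is as large as or larger than the gene, and the sums have log2 fold changes of -0.07 and -0.09 where the genes alone have -0.26 and 0.42; for Rps7 the grey part is too small to see.

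Rps12 has a related row, Rps12l1, that was at 0 CPM in all 3 vehicle libraries and at 176, 235 and 231 CPM in tunicamycin (1878, 2688 and 2550 counts). It was called higher in edgeR (adjusted p = 2.5e-08), in 3 of 3 libraries. Rps12l1 shares 16.9% of the 31-base words of Rps12. Rps12 and Rps12l1 together were at 4762, 4868 and 5340 CPM in vehicle and 5072, 4869 and 5274 CPM in tunicamycin, so the groups overlapped. With all 3 related rows the log2 fold change of Rps12 was 0.03 in place of -0.04. How reads were divided between the annotated copies was not tested.

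On the TPM scale, 5 members lay higher in all tunicamycin libraries and 6 lower, against 10.4% and 3.54% of all genes. The largest difference from the count scale was in Rps20, a small-subunit protein named after its values were seen (ENSMUSG00000028234; chr4:3831334-3835665). Its CPM overlapped, at 4428, 4318 and 5144 in vehicle and 4633, 4510 and 4922 in tunicamycin, with a log2 fold change of 0.02. Its TPM was 794, 689 and 859 in vehicle and 1050, 1093 and 1193 in tunicamycin, or 781 ± 86.0 and 1112 ± 73.1 (SD, n = 3 each). The difference in log2(TPM + 1) was 0.51, with an adjusted p of 0.27 in limma.

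The 2 scales differ by the length that the authors' quantification assigned to the gene, which can be read from the ratio of count to TPM. Relative to the other genes of the library, this length was 0.948, 1.04 and 0.958 for Rps20 in vehicle and 0.748, 0.718 and 0.693 in tunicamycin. Of 3610 genes, 37 had a larger decrease. The annotated transcripts of Rps20 run from 512 to 3706 bases. Rpsa shifted the same way, from 0.777, 0.780 and 0.729 to 0.673, 0.678 and 0.658, so that its TPM of 3389, 3257 and 3645 in vehicle lay below the 3902, 3675 and 3847 in tunicamycin. Rpl35 went from 0.361, 0.381 and 0.353 to 0.329, 0.335 and 0.312. Relative length did not overlap between the groups for 42.3% of all genes.

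**Figure D5:**
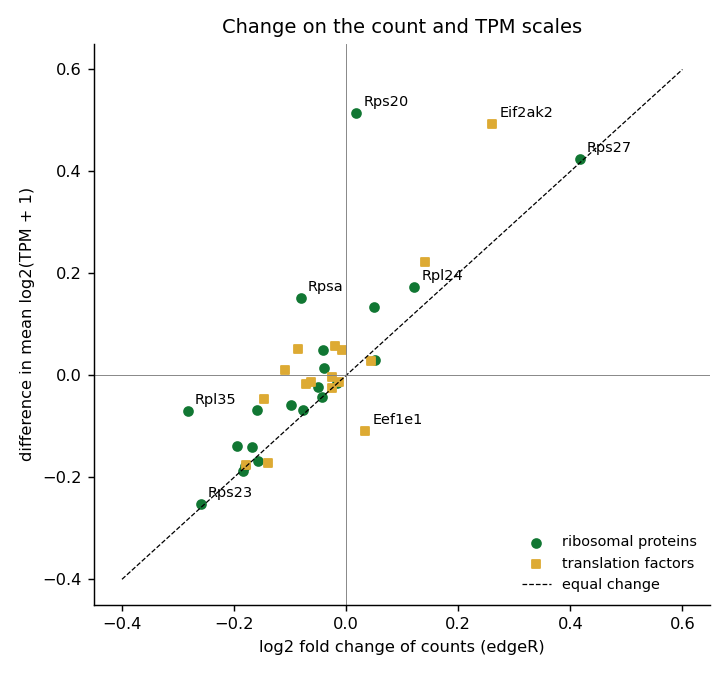
Difference in mean log2(TPM + 1) against the log2 fold change of counts for the tested genes with a mean TPM of at least 1 (green circles, ribosomal proteins; yellow squares, translation factors). Points on the dashed line changed equally on both scales; Rps20 (0.02 on counts, 0.51 on TPM) lies farthest above it, and Rpl35 moves from -0.28 to -0.07.

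Of the factors that act while the small subunit scans for the start codon, 3 had a row, with estimates from -0.14 to -0.03 and overlapping groups. Eif1ax, which keeps the scanning ribosome open, was at 240, 229 and 265 CPM in vehicle and 244, 196 and 227 CPM in tunicamycin. Its groups overlapped, with a log2 fold change of -0.14 (95% interval -0.34 to 0.06). Eif1b, a homologue of the start-site factor eIF1, gave -0.09, and Eif1ad gave -0.03.

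eIF3 is the large complex that holds the small subunit ready for mRNA. All 6 tested subunits had estimates below 0, between -0.15 and -0.01, and 1 of 6 had an unadjusted p under 0.05. Eif3a, the scaffold of the complex (ENSMUSG00000024991; chr19:60761117-60790658), was at 2206, 2125 and 2267 CPM in vehicle and 1971, 1962 and 2029 CPM in tunicamycin. All tunicamycin libraries were below all vehicle libraries, and the means were 2199 ± 71.6 and 1987 ± 36.1 CPM (SD, n = 3 each). The log2 fold change was -0.15 (SE 0.05, 95% interval -0.26 to -0.03, adjusted p = 0.61 in edgeR), and with limma on log2(TPM + 1) the difference was -0.05.

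Eif3f was at 2611, 2592 and 2726 CPM in vehicle and 2521, 2395 and 2433 CPM in tunicamycin, without overlap. Its log2 fold change was -0.11 (95% interval -0.23 to 0.01, adjusted p = 0.79), and in TPM it was 0.01. In Eif3f the pyrimidine run spans the start, as printed above, and Eif3a had no run near its start. Eif3e gave -0.03 and Eif3j1 -0.07, and Eif3l and Eif3g, named after their values were seen, gave -0.02 and -0.01.

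Of the eIF2 kinases, Eif2ak2 had a row. It encodes PKR, which is activated by double-stranded RNA and phosphorylates the same site of eIF2 as PERK. It was at 47.1, 55.6 and 41.6 CPM in vehicle and 57.4, 63.5 and 51.9 CPM in tunicamycin, with overlapping groups. The log2 fold change was 0.26 (95% interval -0.05 to 0.57, adjusted p = 0.84 in edgeR). In TPM the tunicamycin libraries, at 5.29, 6.74 and 6.10, all lay above the vehicle libraries at 4.19, 4.45 and 3.40. The difference there was 0.49 on the log2(TPM + 1) scale, with an adjusted p of 0.44 in limma.

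The 4E-binding proteins hold the cap-binding protein eIF4E away from the initiation complex. Eif4ebp1 was at 49.7, 47.3 and 45.6 CPM in vehicle and 50.2, 40.4 and 35.5 CPM in tunicamycin, with overlap and a log2 fold change of -0.18 (95% interval -0.51 to 0.15). Eif4ebp3 was at 16.7, 22.5 and 5.34 CPM in vehicle and 18.0, 9.11 and 21.8 CPM in tunicamycin. It scattered too much to place a change (0.14, 95% interval -1.08 to 1.37), and it shares 66.4% of its 31-base words with the overlapping annotation AC115631.1. Eif4e3, a cap-binding homologue of eIF4E, gave -0.06.

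Elongation was represented by few rows. Eif5a2, a homologue of the factor that relieves stalling ribosomes, was at 41.9, 32.5 and 41.0 CPM in vehicle and 41.3, 37.0 and 40.7 CPM in tunicamycin (log2 fold change 0.04, 95% interval -0.28 to 0.37). Eef1e1, a component of the multi-tRNA synthetase complex, gave 0.03. The eEF1A lysine methyltransferase genes Eef1akmt1 and Eef1akmt3 gave -0.01 and 0.15, the latter at about 1 CPM per library.

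Other translation genes were read from lists of 67 symbols, of which 21 had a row and 18 were tested. Rpl10l stands in these lists too, although the symbol rule takes it. Of these, 1 was called higher, Rps12l1, and 0 lower; at an unadjusted p under 0.05, 1 was higher and 1 lower. The second was Etf1, the release factor that ends translation, at 798, 822 and 885 CPM in vehicle and 758, 747 and 790 CPM in tunicamycin (log2 fold change -0.13, adjusted p = 0.72). Abce1, which recycles ribosomes, gave 0.00. Rpl36al, a ribosomal protein outside the symbol rule, gave -0.11.

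Of the list of eIF2 phosphatase and stress-output genes, 6 of 12 had a row, and 0 of 5 tested were called. Atf4, whose mRNA is translated more when eIF2 is phosphorylated, was at 803, 817 and 931 CPM in vehicle and 795, 810 and 865 CPM in tunicamycin (-0.05, 95% interval -0.19 to 0.10). Ppp1r15b, a subunit of the eIF2 phosphatase, gave -0.03. Impact, an inhibitor of the eIF2 kinase GCN2, was at 141, 151 and 138 CPM in vehicle and 174, 153 and 154 CPM in tunicamycin (0.16, 95% interval -0.02 to 0.34, adjusted p = 0.84 in edgeR). It was named after its values were seen, as the gene of this list whose tunicamycin libraries all lay above vehicle in CPM. Its TPM groups overlapped, at 33.5, 26.4 and 30.3 in vehicle and 37.4, 26.7 and 37.5 in tunicamycin. Of the mTORC1 list 4 of 17 had a row and 0 were called, with Lamtor5 at 0.03 and Rraga at -0.04. Of the nascent-chain list 2 of 10 had a row and 0 were called, with Zfp622 at -0.09 and Nmt1 at -0.06, and the 12 genes listed for mRNA binding and TOP control had no row.

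Summed counts over the rows were 7412150 to 9495720 in the vehicle libraries and 10584300 to 11211300 in the tunicamycin libraries, so every tunicamycin total was larger. The T cell label was checked against its markers. Of 8 listed CD4 T cell genes 4 had a row, Cd3d, Cd3e, Cd28 and Il7r, and they summed to 11551 to 12459 CPM in vehicle and 11237 to 12245 CPM in tunicamycin; Cd4 itself was not analysed here. Within that list Cd3e was lower in every tunicamycin library, at 2793, 2858 and 2666 CPM in vehicle and 2579, 2565 and 2441 CPM in tunicamycin (log2 fold change -0.13, adjusted p = 0.68 in edgeR). The groups overlapped for Cd3d, Cd28 and Il7r, with log2 fold changes of 0.03, 0.01 and -0.00065. B cell markers (2 of 4 with a row) summed to 5.24 to 7.30 and 3.68 to 6.43 CPM, and Cd8b1 was at 44.8 to 53.3 and 47.5 to 55.8 CPM. Plasma cell markers (3 of 4) summed to 84.2 to 676 CPM in vehicle and 95.4 to 677 CPM in tunicamycin, macrophage markers (2 of 4) to 11.9 to 33.7 and 13.3 to 36.5 CPM, and NK cell markers (3 of 5) to 66.6 to 80.5 and 71.8 to 86.1 CPM. The plasma cell gene Igha was at 300.5, 594 and 76.7 CPM in vehicle replicates 1 to 3 and at 334, 596 and 83.0 CPM in the tunicamycin libraries with the same numbers. The NK cell gene Gzma was at 4.03, 2.80 and 5.66 CPM in vehicle and 11.5, 11.3 and 4.98 CPM in tunicamycin (log2 fold change 1.15, adjusted p = 0.65 in edgeR). Prf1, of the same list, was at 63.8 to 75.8 CPM in vehicle and 66.4 to 72.6 CPM in tunicamycin (0.02). Il2ra, the gene of CD25, was at 73.3 to 102 CPM in vehicle and 88.3 to 124 CPM in tunicamycin. The summed ranges overlapped between the groups, and their part in the ribosomal protein values was not tested.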

How the data were processed

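RNA of 3 vehicle and 3 tunicamycin libraries was sequenced as paired reads of 150 bp from 200 ng of total RNA, per the labels' protocols. Salmon, bcl2fastq, DESeq2 and the build GRCm39 appear in the submitters' processing notes, without versions. The annotation and strand setting were not found in the labels. The authors deposited estimated counts per gene, not scaled to depth, and TPM values for the same rows. Symbols were matched for 13627 of 13685 rows.

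After rounding, counts were fitted with edgeR 4.0.16 under R 4.3.3 (filterByExpr, which left 3613 genes; TMM factors; robust quasi-likelihood F test, 2-sided; Benjamini-Hochberg adjustment; threshold 0.05). Alternatives used DESeq2 1.42.0, limma 3.58.1 on log2(TPM + 1) or log2(TPM + 0.1), other scaling and filters, effective-length offsets, left-out libraries and summed related rows. Scripts were tested on simulated data. Shared sequence was measured as 31-base words of GENCODE M21 transcripts (GRCm38), and gene positions are on that build; promoter sequences are RefSeq, GRCm38.p6. Lists are described by counts and medians.

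The members and lists were chosen with earlier results of these data known. Named genes were, in each role, up to 4 with the smallest p and the most abundant, every member called by edgeR, by DESeq2 or by edgeR with a replicate block and no other change, every member without overlap and with an unadjusted p under 0.05, and the eIF2 kinases, 4E-binding proteins, Rps12 and Rps27.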

Additional observations from a re-analysis of the deposited data

How the results depend on the processing

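No alternative without a replicate block called a member higher. Members called lower numbered 0 in edgeR, 3 with DESeq2 (Rpl35, Rps23 and Rpl23) and 2 without a filter on low counts (Rpl35 and Rps23), and 0 with each library left out in turn. Over all genes, where edgeR called 2 higher and 1 lower, the counts higher and lower were 10 and 6 without a filter, 12 and 11 with DESeq2, and 1 and 0 with limma on log2(TPM + 1). Genes called lower numbered 2 with DESeq2-style size factors, 0 with library totals only, 2 with a mean of at least 50 counts, 0 with limma on log2(TPM + 0.1) and 0 with effective-length offsets. Summing related rows left 1 gene called higher, since Rps12l1 was then part of Rps12. Leaving out a library gave 1 to 4 genes called higher and 0 to 1 lower. The cause of these differences was not tested. Library totals moved the median of the translation factors from -0.026 to 0.017 and the median of all genes to 0.04.

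Same-numbered libraries deviated together with correlations of 0.0371, 0.187 and 0.107 over 3613 genes, and each of the 6 libraries correlated best with its own number. The deposited column names also give each tunicamycin library the name and number of a vehicle library with plusTun added. What libraries of the same number share is not stated in the labels. The marker Igha also ran in the same order in both groups. With the replicate block, 14 genes were called higher and 22 lower, 5 of them members, with edgeR adjusted p of 0.0029 for Rpl35, 0.0021 for Rps23, 0.032 for Rpl23, 0.031 for Rps7 and 0.047 for Rpl37. With the replicate block and effective-length offsets, 3 genes were called lower, and 1 member was called higher (Rps20, which is not among the 27 named members) and 1 lower (Rps23, -0.31); there Eef1e1 was at -0.17, Eif5a2 at -0.026 and Rpsa at 0.092.

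Of 458 values of the 27 named members under alternatives, 408 kept their direction and side of the threshold, 11 passed it and 39 changed sign; none of the 8 ribosomal proteins with an unadjusted p under 0.05 changed sign. With library totals, Eef1akmt1 was at 0.030, Eif1ad at 0.015, Eif3e at 0.017, Rps12 at 0.0040 and Rps29 at 0.00062. With limma on log2(TPM + 1), Eef1e1 was at -0.11, Eif1b at 0.051, Eif3f at 0.010, Rps12 at 0.014 and Rpsa at 0.15, and with log2(TPM + 0.1) the values were -0.11, 0.052, 0.010, 0.014 and 0.15. With effective-length offsets, Eef1e1 was at -0.16, Eif5a2 at -0.033 and Rpsa at 0.091. With summed rows, Rps12 was at 0.025 and Rps27 at -0.092. Leaving out each library in turn, Eif1ad ranged from -0.089 to 0.028, Eef1akmt1 from -0.19 to 0.15, Eef1e1 from -0.089 to 0.13, Eif5a2 from -0.059 to 0.11, Eif3e from -0.045 to 0.011, Eif3j1 from -0.15 to 0.00066, Eif4ebp3 from -0.27 to 0.58, Rps12 from -0.073 to 0.012, Rps29 from -0.12 to 0.065, Eif4e3 from -0.16 to 0.021 and Eef1akmt3 from -0.043 to 0.33. For genes near 1 CPM, depth limits what could be detected.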
